A study of Mus musculus with 9 samples.

Results

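Mature cartilage (MatC, 3 libraries) was compared with immature cartilage (ImC, 3 libraries) gene by gene. These 6 libraries were chosen by their labels from the 9 of the series, and the 3 bone libraries did not enter the fit. All came from C57BL/6J mice, with no treatment or mutation named. The labels call the cells mature chondrocytes in MatC and immature chondrocytes in ImC, and name neither the skeletal site nor the age. Of the 43472 genes in the count table, 13180 passed a minimum count and were tested.

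Cartilage that will be replaced by bone grows from small, dividing chondrocytes that lay down a matrix rich in collagen II and aggrecan under the control of Sox9, Sox5 and Sox6. As these cells mature they stop dividing, pass through a prehypertrophic state that secretes the hedgehog ligand Ihh, and enlarge into hypertrophic chondrocytes that make collagen X. The oldest hypertrophic cells mineralize their matrix and switch on genes that they share with osteoblasts, the cells that build bone.

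The libraries differed in quality. Total counts ran from 10270972 to 23159547, and mitochondrially encoded genes took 32.02% to 55.04% of the counts in ImC and 33.69% to 82.31% in MatC. The means were 44.1% ± 11.6 and 61.7% ± 25.1 (SD, n = 3 each; exact two-sided permutation p = 0.3, where 0.1 is the smallest that 3 against 3 allows). MatC replicate 3 held only 1904092 counts outside those genes, and 3 reads there equalled 0.69 CPM (counts per 1000000 counts, scaled by TMM factors) against at most 0.204 in the other libraries. ImC replicate 3 and MatC replicate 3 also stood apart from their own groups on the second principal component, which held 30.8% of the variance, while the first, with 41.8%, separated the groups. Nothing in the labels says that the replicates came from separate animals. The tests therefore measure only how far these libraries vary, and that variation may be technical.

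With edgeR's quasi-likelihood test and Benjamini-Hochberg adjustment over all 13180 genes, 157 genes were higher in MatC (1.19%) and 48 were lower (0.364%), 1.56% in either direction, at an adjusted p under 0.05, which is what "called", "rose" and "fell" mean here. The median log2 fold change was 4.74 among the genes that rose and -2.78 among those that fell, against -0.01 over all genes tested, and 71 rises but 8 falls reached 5 on the log2 scale. For every called gene the 3 MatC libraries lay wholly above or wholly below the 3 ImC libraries. Over all genes tested, 1409 (10.7%) had MatC wholly above and 1755 (13.3%) had MatC wholly below. The counts given below for each gene list are to be read beside these shares.

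**Figure D1:**
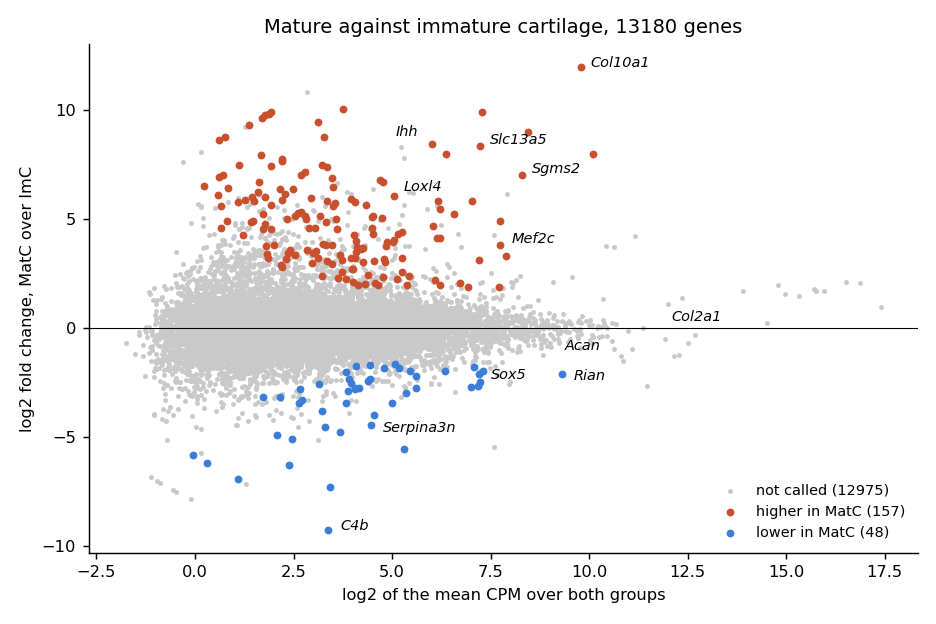
Log2 fold change of MatC over ImC against the log2 of the mean CPM over both groups, 1 point per gene. Red points are the 157 genes that rose and blue points the 48 that fell; Col10a1 stands at 11.96 and C4b at -9.26, and the main cartilage matrix genes Col2a1 and Acan lie near 0.

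Most calls did not outlast the loss of a single library. Leaving out ImC replicate 1 ended 150 of the 157 rises and 46 of the 48 falls, and leaving out MatC replicate 2 ended 145 and 48. Without ImC replicate 2 or MatC replicate 1, 116 and 121 rises and 37 and 46 falls ended. Without ImC replicate 3 or MatC replicate 3, 60 and 70 rises and 17 and 33 falls ended. The adjusted p of called genes was at most 0.208, 0.13 and 0.0872 without ImC replicate 1, 2 and 3, and at most 0.18, 0.192 and 0.0934 without MatC replicate 1, 2 and 3. No called gene named here changed direction over these 6 fits, while Acan, Col9a1 and Fgfr3, which were not called and lay near 0, did. The libraries whose loss ends a call are given with each group of genes.

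**Figure D2:**
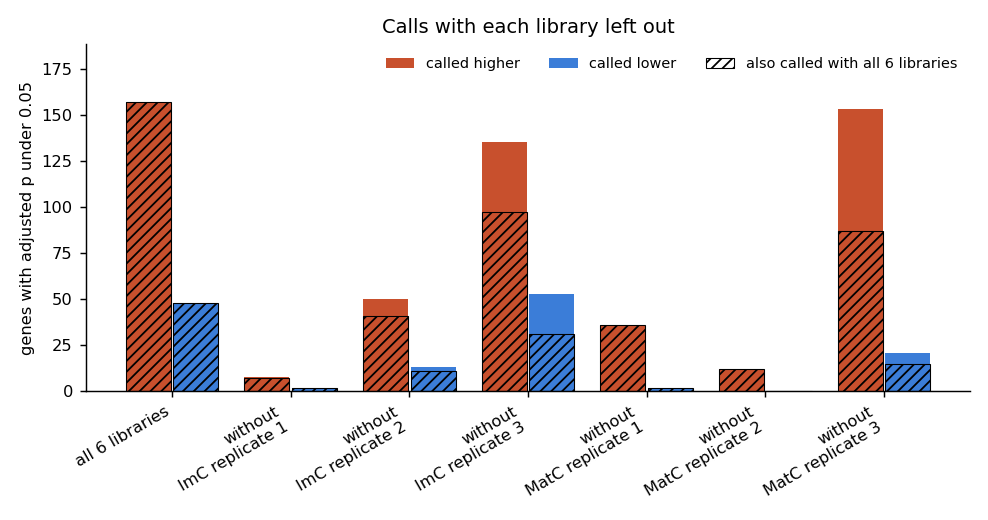
Genes with an adjusted p under 0.05 with all 6 libraries and with each library left out in turn; red bars count genes higher in MatC, blue bars genes lower in MatC, and hatched parts are genes also called with all 6. The bars are lowest without ImC replicate 1 (8 and 2) and without MatC replicate 2 (12 and 0).

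In all, 5 genes rose with all 6 libraries and also in each of the 6 fits that left 1 out, and no gene fell in all of them. They were Col10a1, Ihh, Sgms2, Slc13a5 and Loxl4, all in the hypertrophic list, which was chosen with earlier results of these data known. Col10a1 encodes collagen X, the matrix collagen that marks hypertrophic cartilage. It was measured at 0.612, 0.366 and 0.348 CPM in ImC replicates 1, 2 and 3 and at 675, 763 and 3868 CPM in MatC replicates 1, 2 and 3. MatC replicate 3 was the highest, and there the gene took 0.884% of the counts outside mitochondrial genes, against 0.158% and 0.185% in replicates 1 and 2. The log2 fold change was 11.96 ± 1.10 (SE; adjusted p = 0.00552), and 10.68 without MatC replicate 3. The gene spans 34389981 to 34397085 on chromosome 10 (GRCm38). Nt5dc1, which overlaps it on the opposite strand, rose by 4.59 ± 0.69 (adjusted p = 0.0268), and it too was highest in MatC replicate 3, at 84.1 CPM against 25.9 and 19.02. It was at 3.68 without that library, and its call was lost with ImC replicate 1 (0.107), ImC replicate 2 (0.0623) or MatC replicate 2 (0.0671) left out. Where the 2 genes overlap their reads cannot be told apart, because the kit keeps no strand.

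Ihh, the hedgehog ligand of prehypertrophic chondrocytes (chromosome 1, 74945315 to 74951672), was at 0.816, 0.203 and 0.116 CPM in ImC and at 120, 56.6 and 207 CPM in MatC. It rose by 8.44 ± 0.88 on a log2 scale (adjusted p = 0.00959), and by 9.51 without ImC replicate 1. Sgms2 makes sphingomyelin, a lipid of the cell membrane (chromosome 3, 131318985 to 131491411). Its ImC libraries held 4.49, 5.89 and 4.12 CPM and its MatC libraries 743, 434 and 684 CPM, the smallest adjusted p of all genes tested (0.00304), with a log2 fold change of 7.0 ± 0.48. Both groups were tight: no MatC library was under 434 CPM and no ImC library over 5.89.

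Slc13a5 imports citrate into the cell (chromosome 11, 72241989 to 72267222). It was at 1.63, 0.691 and 0.464 CPM in ImC and 184, 281 and 433 CPM in MatC, a rise of 8.34 ± 0.70 (adjusted p = 0.00552), and by 8.96 without ImC replicate 1. Loxl4, an enzyme of the lysyl oxidase family that cross-links collagen and elastin (chromosome 19, 42593982 to 42612813), was at 0.952, 0.894 and 1.10 CPM in ImC and 45.6, 44.0 and 106 CPM in MatC. It rose by 6.04 ± 0.52 (adjusted p = 0.00552). Over the 6 fits the adjusted p of these 5 genes stayed between 0.00277 and 0.0308.

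**Figure D3:**
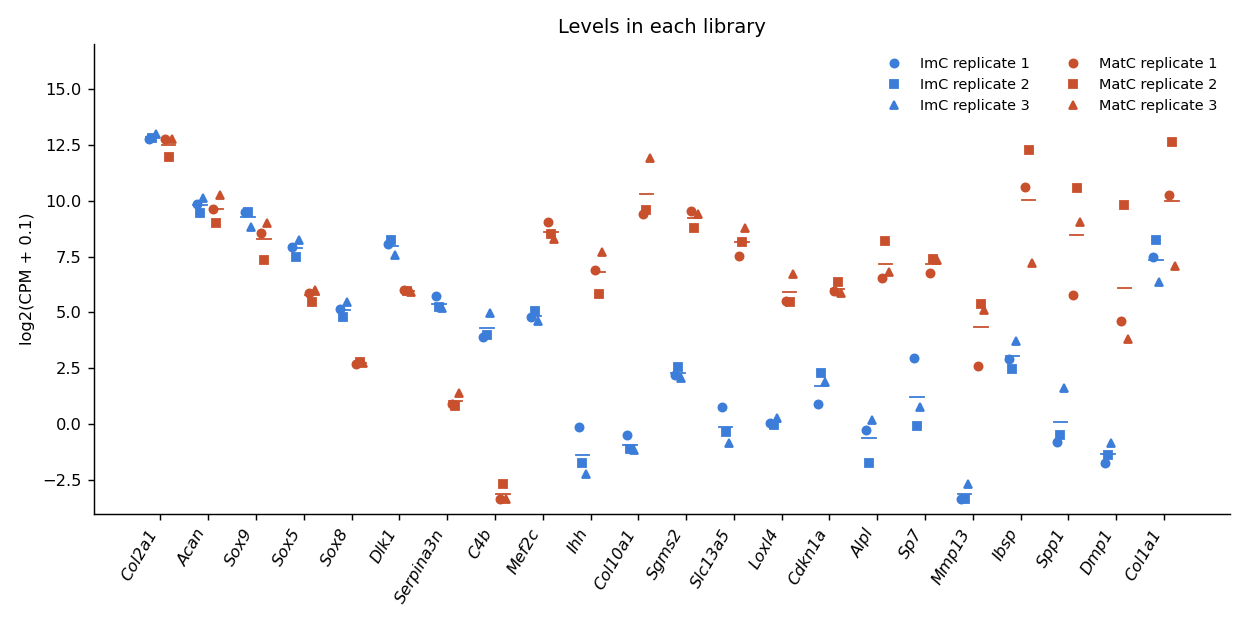
Levels of 22 genes in each library, as log2(CPM + 0.1), with ImC in blue and MatC in red; circles, squares and triangles are replicates 1, 2 and 3, and short lines are means of the plotted values. Col2a1 and Acan overlap between groups, Sox5, Sox8 and Serpina3n sit lower in MatC, and Col10a1, Sgms2 and Slc13a5 sit far higher, with MatC replicate 2 the highest library for Ibsp, Spp1, Dmp1 and Col1a1.

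The sequences upstream of 5 of the leading genes are shown because they are where regulators of these genes could bind. They are the 3 genes of the 5 above with 1 listed start site (Col10a1, Ihh, Loxl4), the collagenase Mmp13, and Serpina3n, the fall with the smallest p that has an entry. Each is the 250 bases before the start in RefSeq (GRCm38.p6), read 5′ to 3′ on the gene's strand, and capitals mark matches on either strand to any of the motifs named after them.
Col10a1 (chr10:34389731-34389980, + strand): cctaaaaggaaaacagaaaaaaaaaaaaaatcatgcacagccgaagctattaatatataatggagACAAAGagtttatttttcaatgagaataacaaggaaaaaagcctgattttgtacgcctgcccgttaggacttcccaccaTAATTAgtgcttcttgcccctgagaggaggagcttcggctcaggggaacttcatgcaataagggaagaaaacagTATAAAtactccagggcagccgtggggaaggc
Ihh (chr1:74951673-74951922, - strand): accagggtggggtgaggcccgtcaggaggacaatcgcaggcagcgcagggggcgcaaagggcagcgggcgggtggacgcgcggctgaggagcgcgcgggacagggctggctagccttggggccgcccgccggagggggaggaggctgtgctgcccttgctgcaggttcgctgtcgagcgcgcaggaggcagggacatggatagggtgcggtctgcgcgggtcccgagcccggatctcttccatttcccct
Loxl4 (chr19:42612807-42613056, - strand): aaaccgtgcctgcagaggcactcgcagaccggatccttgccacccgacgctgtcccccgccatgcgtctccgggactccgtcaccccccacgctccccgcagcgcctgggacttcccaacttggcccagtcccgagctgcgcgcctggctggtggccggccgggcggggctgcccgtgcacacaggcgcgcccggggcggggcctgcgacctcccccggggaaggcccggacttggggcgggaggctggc
Mmp13 (chr9:7272264-7272513, + strand): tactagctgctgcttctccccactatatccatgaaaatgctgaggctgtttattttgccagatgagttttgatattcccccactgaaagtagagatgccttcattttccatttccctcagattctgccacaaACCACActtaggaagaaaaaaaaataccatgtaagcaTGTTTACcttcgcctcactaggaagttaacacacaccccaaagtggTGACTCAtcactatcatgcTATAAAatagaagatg
Serpina3n (chr12:104406458-104406707, + strand): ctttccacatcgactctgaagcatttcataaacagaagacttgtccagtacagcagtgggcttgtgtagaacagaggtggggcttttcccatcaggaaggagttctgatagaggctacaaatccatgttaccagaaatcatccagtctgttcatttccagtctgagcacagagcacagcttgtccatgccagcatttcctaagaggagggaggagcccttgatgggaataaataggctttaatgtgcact
Counting the base before the start as -1, Col10a1 carried the SOX core ACAAAG from -185, the homeodomain core TAATTA at -106 and the TATA box TATAAA at -32. Mmp13 carried the RUNX core TGTGGT at -118 (on the other strand, so it reads ACCACA), the forkhead core TGTTTAC at -81, the AP-1 core TGANTCA at -35 and TATAAA at -16. Ihh, Loxl4 and Serpina3n held none of these letters in the bases shown. Windows from 250 bases before to 50 after a start were searched on both strands for 115 of the 157 genes that rose, 32 of the 48 that fell and 9348 of the 13180 tested. The SOX core was in 18.0% of the windows of risen genes, 8.33% of those of fallen genes and 13.4% of all. The RUNX core was in 12.4%, 8.33% and 11.9%, the AP-1 core in 7.87%, 6.25% and 4.8%, and TATAAA in 10.7%, 12.5% and 6.92%. TAATTA was in 5.06%, 8.33% and 2.54% and the forkhead core in 2.81%, 8.33% and 2.45%. The hypoxia response core ACGTG was in 17.4%, 22.9% and 25.3%. The cell cycle homology region TTTGAA was in 11.2%, 8.33% and 11.7%, and the MEF2 site in 1.69%, 4.17% and 1.66%. There were 178, 48 and 12018 windows, so each 8.33% rests on 4 windows. These shares are a description, with no test, and a match of letters is not a binding site.

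Of the hypertrophic chondrocyte list, 11 of 23 tested genes rose and 0 fell (1.19% and 0.364% over all genes), and the median log2 fold change was 4.01. In 19 of 23 every MatC library was above every ImC library, against 10.7% of all genes. The 11 rises include the 5 genes above. Beside the 5 genes above they were Mef2c, Alpl, Mmp13, Sp7, Spp1 and Ibsp. Mef2c, a transcription factor that drives hypertrophy, was at 28.2, 33.5 and 24.6 CPM in ImC and 524, 361 and 311 CPM in MatC. It rose by 3.79 ± 0.40 (adjusted p = 0.00959), and its call ended only without ImC replicate 1 (0.0736). Mmp13, the collagenase of late hypertrophic cartilage (chromosome 9, 7272514 to 7283331), had 1 read in all of ImC and 958 in MatC, a ratio of 1439 (95% exact counting interval 257.6 to 56890). Its MatC libraries held 6.02, 41.2 and 34.0 CPM, and it was not called without either ImC replicate 1 (0.0674) or MatC replicate 2 (0.065). The members that were not called included Pth1r, the receptor for parathyroid hormone and PTHrP, at 121, 82.0 and 469 CPM in ImC and 961, 2051 and 5790 CPM in MatC (3.71 ± 0.91, adjusted p = 0.0933, 4.87 without ImC replicate 3 and 2.77 without MatC replicate 3). Panx3, a membrane channel protein, was at 18.4, 0.406 and 1.28 CPM in ImC and 579, 267 and 582 CPM in MatC (6.16 ± 1.36, adjusted p = 0.0715, and 5.58 to 9.14 with 1 library left out). For both, the groups did not overlap. The list's count of rises was 7 without ImC replicate 1 or MatC replicate 2, 9 without ImC replicate 2, MatC replicate 1 or MatC replicate 3, and 10 without ImC replicate 3. Leaving out replicate 3 of both groups, an alternative added after the data were seen, gave 14 of 24.

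Genes used by osteoblasts rose as well. Of that list 10 of 24 tested genes rose and 0 fell (1.19% and 0.364% over all genes), with a median log2 fold change of 4.54. Of the mineralization list 6 of 16 rose and 0 fell, with a median of 1.82. All 6 were also among the osteoblast rises, and Alpl, Sp7, Spp1 and Ibsp were among the hypertrophic rises as well. These lists are therefore not separate lines of evidence. Alpl, the phosphatase that frees phosphate for mineral (chromosome 4, 137741733 to 137796384), was at 0.748, 0.203 and 1.04 CPM in ImC and 93.4, 294 and 111 CPM in MatC. It rose by 7.99 ± 0.82 (adjusted p = 0.00959), by 7.30 without MatC replicate 2, and the call ended without ImC replicate 1 (0.0589). Sp7, a transcription factor required for bone formation, was at 7.68, 0.853 and 1.62 CPM in ImC and 107, 166 and 161 CPM in MatC. Its log2 fold change was 5.43 ± 0.84 (adjusted p = 0.0275), and 6.85 without ImC replicate 1; the call ended without MatC replicate 1, 2 or 3 (0.0579, 0.106 and 0.0503). Smpd3, a sphingomyelinase needed for mineral deposition, was even across MatC, at 420, 434 and 386 CPM, and at 23.8, 3.29 and 14.6 CPM in ImC. It rose by 4.90 ± 0.71 (adjusted p = 0.0258), by 5.52 without ImC replicate 1, and was not called without ImC replicate 1, MatC replicate 1 or MatC replicate 2 (0.0674, 0.057 and 0.0972).

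The secreted phosphoproteins of mineralized matrix were uneven across MatC. Ibsp, bone sialoprotein, was at 7.55, 5.49 and 13.3 CPM in ImC and 1583, 4859 and 150 CPM in MatC. Spp1, osteopontin, was at 0.476, 0.610 and 2.96 CPM in ImC and 55.3, 1500 and 523 CPM in MatC. Dmp1, a matrix protein best known from osteocytes, was at 0.204, 0.284 and 0.464 CPM in ImC and 24.4, 888.9 and 14.02 CPM in MatC. All 3 lie on chromosome 5 between 104202613 and 104441050, and MatC replicate 2 was the highest library for each. Their log2 fold changes were 7.97 ± 1.29, 9.0 ± 1.45 and 9.89 ± 1.90 (adjusted p = 0.0293, 0.0293 and 0.0462), and 6.64, 7.77 and 5.91 without MatC replicate 2; that of Spp1 was 10.30 without ImC replicate 3. Each call ended without ImC replicate 1 or 2 (0.114 to 0.166 and 0.0679 to 0.0967). Those of Ibsp and Dmp1 also ended without ImC replicate 3 (0.0501 and 0.085) or MatC replicate 1 (0.0619 and 0.057), those of Ibsp and Spp1 without MatC replicate 2 (0.0878 and 0.0972), and that of Spp1 without MatC replicate 3 (0.0503).

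Of the other called genes in these lists, Dlx3, a homeodomain factor of bone, was at 13.2, 38.4 and 14.3 CPM in MatC (6.89 ± 0.93, adjusted p = 0.0223). Phex, an endopeptidase that governs phosphate balance, was at 29.0, 113.5 and 12.6 CPM in MatC (6.77 ± 0.95, adjusted p = 0.0244). Bmp8a, a bone morphogenetic protein, was at 8.52, 28.4 and 23.7 CPM in MatC (7.39 ± 0.85, adjusted p = 0.0137). None of the 3 was over 0.754 CPM in any ImC library. Their log2 fold changes were 6.22 and 5.47 for Dlx3 and Phex without MatC replicate 2, and 7.49 and 8.47 for Dlx3 and Bmp8a without ImC replicate 1. The calls of Dlx3 and Phex ended without ImC replicate 1 (0.0738 and 0.107), all 3 without MatC replicate 2 (0.0881, 0.0602 and 0.0684), and that of Phex also without ImC replicate 2 (0.0528). Counts for the osteoblast list were 2 without ImC replicate 1 or MatC replicate 2, 5 to 12 without each other library, and 16 of 26 without replicate 3 of both groups. For mineralization they were 0 without ImC replicate 1, 2 to 6 without each other library, and 9 of 17 without replicate 3 of both groups.

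Runx2, the master regulator of osteoblasts, and Col1a1, the main bone collagen, were not called. Runx2 was at 29.9, 1.34 and 27.0 CPM in ImC and 185, 157 and 106 CPM in MatC (2.94 ± 0.91, adjusted p = 0.165). Col1a1 was at 181, 300.2 and 81.5 CPM in ImC and 1230, 6317 and 133 CPM in MatC (3.77 ± 1.20, adjusted p = 0.178, and 1.88 without MatC replicate 2). Its groups overlapped, with MatC replicate 3 below 2 of the ImC libraries. Bglap, the gene of the bone protein osteocalcin, had at most 11 reads in any library and was under the minimum count.

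Marker lists of several other cell types had higher sums in MatC libraries, mostly highest in replicate 2, the library highest in Ibsp and Dmp1. The adipocyte sum was highest in MatC replicate 3. The pericyte and smooth muscle sum was lower in MatC without overlap, at 564 to 912 CPM in ImC and 352 to 508 CPM in MatC. The nerve and Schwann sum averaged 307 CPM in ImC and 213 CPM in MatC, with the groups overlapping. The summed level of the endothelial list was 17.6 to 33.4 CPM in ImC and 133, 367 and 106 CPM in MatC replicates 1, 2 and 3. Cdh5, a defining gene of that list and a junction protein of vessel walls, was at 0 to 0.116 CPM in ImC. In MatC Cdh5 was at 12.2, 22.9 and 0.46 CPM, the last from 2 reads. Kdr, another defining gene, was at most 0.29 CPM in ImC and at least 1.15 CPM in MatC. Both were under the minimum count with all 6 libraries. The defining gene Pecam1 was tested, and its groups overlapped, with ImC replicate 3 at 6.73 CPM and MatC replicate 3 at 6.67 CPM. The perichondrium, tendon and fibroblast list summed to 928 to 3236 CPM in ImC and 8134, 16890 and 2330 CPM in MatC, with its groups overlapping. Of these lists, 0 of 10 tested endothelial genes were called (median log2 fold change 2.38), and 1 of 25 perichondrium genes rose (2.36). Of the 20 endothelial genes 10 fell under the minimum count with all 6 libraries. All 20 were tested without ImC replicate 1, 2 or 3, when 0, 0 and 1 rose, and without MatC replicate 3, when 6 rose. With 10 and 9 tested, 0 rose without MatC replicate 1 or 2. All 20 were also tested without replicate 3 of both groups, when 15 rose, and with all 9 libraries in the fit, when 12 rose. Osteoclast genes summed to 59.8 to 144 CPM in ImC and 155, 658 and 162 CPM in MatC, with 1 of 10 called. Macrophage and leukocyte genes summed to 9.75 to 26.5 CPM and 29.96, 106 and 23.2 CPM, with Ptprc at 0 in MatC replicate 3. Only 4 of the 19 in the count table passed the minimum count, and 0 of these 4 were called. Without replicate 3 of both groups, 5 of 12 tested osteoclast genes and 5 of 12 tested macrophage and leukocyte genes rose. In that fit 529 of all 13893 genes tested rose.

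Skeletal muscle genes summed to 22.7 to 119 CPM in ImC and 64.2, 696 and 179 CPM in MatC, with 1 of 18 called. Erythroid genes summed to 37.7, 50.2 and 1496 CPM in ImC and 1254, 3883 and 952 CPM in MatC, with 0 of 8 called, and ImC replicate 3 lay among the MatC libraries. Keratinocyte genes summed to at most 31.0 CPM in every library, and Krt5 and Krt14 had at most 3 reads in any. The part of these cells in the osteoblast, mineralization and collagen results was not tested. In bulk RNA, more cells of a type and more RNA per cell cannot be told apart. Among MatC libraries the endothelial, perichondrium, leukocyte and erythroid sums were lowest in replicate 3 and the osteoclast and muscle sums in replicate 1. Of the 5 genes called in every fit, Col10a1, Ihh, Slc13a5 and Loxl4 were highest in replicate 3 and Sgms2 in replicate 1. Of the 157 genes that rose, 3 are on a list of another cell type: Aspn, Itgb3 and Myh3.

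**Figure D4:**
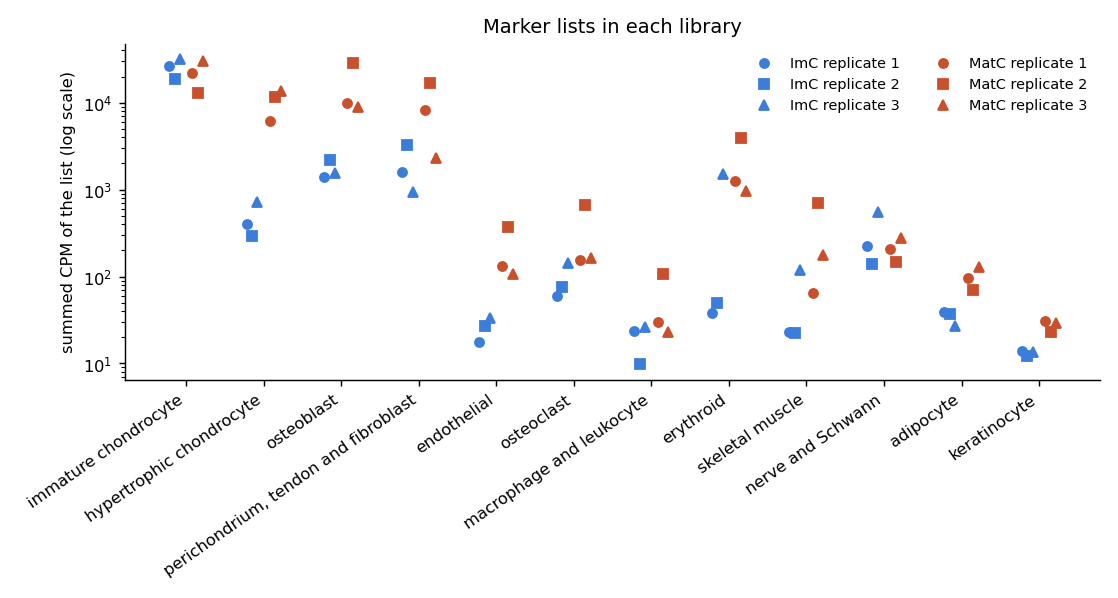
Summed CPM of 12 marker lists in each library on a log scale, ImC in blue and MatC in red, with circles, squares and triangles for replicates 1, 2 and 3. The hypertrophic, osteoblast, endothelial, osteoclast, adipocyte and keratinocyte sums lie wholly higher in MatC, and the others, with the immature chondrocyte list, overlap between groups. The osteoblast, endothelial, osteoclast, leukocyte and muscle sums are highest in MatC replicate 2.

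The matrix genes that make a tissue cartilage were not called. Col2a1, the main cartilage collagen, was at 6856, 7018 and 7966 CPM in ImC and 6942, 3899 and 6826 CPM in MatC, a log2 fold change of -0.31 ± 0.46 (adjusted p = 0.797). Acan, the large proteoglycan, was at 921, 708 and 1097 CPM and at 801, 515 and 1235 CPM (-0.10 ± 0.44, adjusted p = 0.94, and from -0.45 without MatC replicate 3 to 0.19 without MatC replicate 2). Sox9, the factor that sets chondrocyte identity, was at 709, 725 and 448 CPM in ImC and 379, 163 and 511 CPM in MatC (-0.84 ± 0.48, adjusted p = 0.444). Both groups carried these defining chondrocyte genes, and the groups overlapped for all 3. Comp, a pentameric matrix protein, was at 171, 104 and 338 CPM in ImC and 621, 398 and 1624 CPM in MatC without overlap, but was not called (2.11 ± 0.65, adjusted p = 0.166, 2.70 without ImC replicate 3 and 1.33 without MatC replicate 3). Col9a1, which coats collagen II fibrils, and Fgfr3, a receptor that restrains chondrocyte growth, had log2 fold changes of 0.20 ± 0.57 and 0.34 ± 0.56 (adjusted p = 0.905 and 0.815), and -0.10 and -0.22 without MatC replicate 3. Of the immature chondrocyte list 1 of 26 tested genes fell and 0 rose, with a median of -0.36, and the count of falls was 6 without replicate 3 of both groups, 0 to 2 without any 1 library.

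The counts for the other collagens and their partners stand beside 1.19% of all genes tested that rose and 0.364% that fell. Of 33 collagen genes, Col10a1 and Col18a1 rose and 0 fell (median 0.68). Collagens together took 3.71% to 4.78% of the counts outside mitochondrial genes in ImC and 5.31% to 6.66% in MatC. Col18a1, a basement membrane collagen, was at 0.408, 0.447 and 0.754 CPM in ImC and 6.14, 13.6 and 2.76 CPM in MatC (3.80 ± 0.75, adjusted p = 0.0484, and 3.07 without MatC replicate 2). Of 25 collagen processing genes 2 rose, Loxl4 and Lox, and 0 fell (median -0.06). Lox, the founding lysyl oxidase, was at 1.22, 3.54 and 8.70 CPM in ImC and 382, 364 and 25.1 CPM in MatC (5.84 ± 1.14, adjusted p = 0.0483). Unlike Loxl4, it was lowest in MatC replicate 3, and its log2 fold change was 6.74 without ImC replicate 3. The calls of Col18a1 and Lox ended without each of ImC replicates 1, 2 and 3 and MatC replicates 1 and 2 (0.0536 to 0.195).

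Of 44 matrix glycoproteins and proteoglycans, Fbln5, Vit and Aspn rose and Smoc1 fell (1.19% and 0.364% over all genes). Fbln5, which organizes elastic fibres, was read in only 1 ImC library (0.244 CPM) and was at 34.97, 10.4 and 10.1 CPM in MatC (7.47 ± 1.11, adjusted p = 0.0268). Vit had 2 reads in ImC and 418 in MatC, a ratio of 313.9 (95% exact counting interval 86.4 to 2601). Aspn, a small leucine-rich proteoglycan of perichondrium, was at 10.3, 7.72 and 5.92 CPM in ImC and 317, 41.4 and 62.5 CPM in MatC (4.13 ± 0.80, adjusted p = 0.0474, and 2.69 without MatC replicate 1). Smoc1, a secreted modulator of bone morphogenetic protein signals, was at 17.4, 58.4 and 56.6 CPM in ImC and 2.70, 1.10 and 4.83 CPM in MatC (-4.02 ± 0.69, adjusted p = 0.0348). Sulf2, which trims sulfate from heparan chains, was the only one of 37 genes of sulfated glycosaminoglycan synthesis that was called, and it fell by 1.98 ± 0.38 (adjusted p = 0.0462). It was at 112, 164 and 112 CPM in ImC and 39.9, 21.2 and 37.2 CPM in MatC. The calls of Aspn and Sulf2 ended without each of the 6 libraries (0.0501 to 0.175), and that of Smoc1 without all but MatC replicate 3 (0.0501 to 0.128). Those of Fbln5 and Vit ended without ImC replicate 1, MatC replicate 1 or MatC replicate 2 (0.0619 to 0.116), and that of Vit also without ImC replicate 2 (0.0623). The log2 fold change of Fbln5 was 11.01 without ImC replicate 2, where ImC has no read, and 6.64 without MatC replicate 1. That of Vit, 7.67 in all, ran from 6.81 without MatC replicate 2 to 10.19 without ImC replicate 1.

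Ihh signals back to younger cells through the receptor Ptch1, and PTHrP, encoded by Pthlh, holds chondrocytes in the immature state through Pth1r. Of 19 tested genes of these pathways only Ihh was called, and the median was -0.59. Pthlh was at 19.9, 27.1 and 4.76 CPM in ImC and 2.13, 2.48 and 0 CPM in MatC (-3.35 ± 0.95, adjusted p = 0.138). Ptch1, which is also a target of the pathway, was at 103, 81.1 and 69.2 CPM in ImC and 329.8, 131 and 169 CPM in MatC (1.31 ± 0.43, adjusted p = 0.19). For both genes the groups did not overlap, in opposite directions.

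Of 40 Wnt pathway genes 5 rose and 1 fell (1.19% and 0.364% over all genes), with a median of 0.23. Tcf7, a transcription factor that answers Wnt signals, was at 0.680, 0.488 and 0.812 CPM in ImC and 22.4, 22.9 and 12.4 CPM in MatC (4.87 ± 0.50, adjusted p = 0.00959). Lgr6, a receptor for R-spondins, which amplify Wnt signals, was at 0.204, 0.528 and 0.174 CPM and at 4.89, 16.3 and 12.6 CPM (5.13 ± 0.75, adjusted p = 0.0258). The ligand Wnt5b was at 2.18, 2.11 and 4.23 CPM and at 25.3, 22.3 and 59.8 CPM (3.64 ± 0.55, adjusted p = 0.0268). Lrp4, a receptor that binds the Wnt inhibitor sclerostin, rose by 3.11 ± 0.53 (adjusted p = 0.0348), and the ligand Wnt10b had 3 reads in ImC against 122 in MatC, a ratio of 61.1 (95% exact counting interval 20.4 to 300.3). Sfrp5, a secreted inhibitor that binds Wnt ligands, went the other way, at 8.30, 24.7 and 23.6 CPM in ImC and 0.689, 0.404 and 1.61 CPM in MatC (-4.56 ± 0.70, adjusted p = 0.0275). In 12 of the 40 MatC lay wholly above ImC and in 7 wholly below, against 10.7% and 13.3% of all genes. Whether the activity of the pathway differed was not tested. The calls of Tcf7 and Lgr6 ended without ImC replicate 1 (0.0674 and 0.111) or MatC replicate 2 (0.0602 and 0.106), and Lgr6 rose by 5.82 without ImC replicate 2. Those of Wnt5b, Lrp4, Wnt10b and Sfrp5 ended without ImC replicates 1 or 2 or MatC replicates 1 or 2 (0.0563 to 0.18), and that of Wnt10b also without ImC replicate 3 or MatC replicate 3 (0.0501 and 0.0642). No rise of the list was called without ImC replicate 1 or MatC replicate 2.

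Of 53 genes of the BMP and TGF-beta pathways, Bmp8a and Tgfb1 rose and 0 fell (median 0.48), where 1.19% and 0.364% of all genes did. Tgfb1, a ligand stored in cartilage and bone matrix, was at 0.068, 0.0813 and 0.058 CPM in ImC and 2.01, 8.24 and 2.30 CPM in MatC (5.77 ± 0.95, adjusted p = 0.0317, and 4.81 without MatC replicate 2). In the FGF list 1 of 23 genes rose, Il17rd, an inhibitor of FGF signalling, at 0.680, 0.488 and 0.696 CPM in ImC and 8.65, 6.46 and 4.37 CPM in MatC (3.39 ± 0.59, adjusted p = 0.0349). Of 27 hormone and nuclear receptors 1 rose: Vdr, the vitamin D receptor, was at 7.82, 1.14 and 3.13 CPM in ImC and 34.3, 60.9 and 64.8 CPM in MatC (3.74 ± 0.69, adjusted p = 0.0414, and 4.63 without ImC replicate 1). No gene of the insulin-like growth factor list was called (0 of 22), among them Igf2 at 4662, 7048 and 9282 CPM in ImC and 4219, 2274 and 2283 CPM in MatC (-1.26 ± 0.51, adjusted p = 0.284). The calls of Tgfb1 and Il17rd ended without all but MatC replicate 3 (0.0501 to 0.161), and that of Vdr without each of the 6 libraries (0.0623 to 0.148).

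Of 89 skeletal transcription factors 7 rose and 3 fell (median 0.48), where 1.19% and 0.364% of all genes did. The rises were Mef2c, Dlx3, Sp7, Foxo1, Zeb2, Prrx1 and Creb3l1, and the falls Sox5, Sox8 and Creb3l2. Sox5, the partner of Sox9 in cartilage gene activation (chromosome 6, 143828425 to 144781977), was at 246, 177 and 305 CPM in ImC and 58.7, 43.8 and 63.9 CPM in MatC (-2.13 ± 0.37, adjusted p = 0.0349). Sox8, a close relative of Sox9, was at 35.1, 27.5 and 44.0 CPM in ImC and at 6.46, 6.74 and 6.67 CPM in MatC (-2.42 ± 0.35, adjusted p = 0.0258). The MatC values of both were close together. Foxo1, a forkhead factor of growth arrest and stress resistance, was at 11.01, 11.6 and 14.2 CPM in ImC and 57.3, 42.0 and 73.1 CPM in MatC (2.22 ± 0.35, adjusted p = 0.0288). Prrx1, a homeodomain factor of limb mesenchyme, was uneven, at 4.49, 3.29 and 6.96 CPM in ImC and 376, 144 and 35.4 CPM in MatC (5.24 ± 0.86, adjusted p = 0.0315, and 4.20 without MatC replicate 1).

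Relatives of the ER-anchored CREB family moved in opposite directions. Creb3l2, which drives secretory genes in chondrocytes, was at 217, 198 and 223 CPM in ImC and 64.9, 50.7 and 65.1 CPM in MatC (-1.82 ± 0.32, adjusted p = 0.0349). Creb3l1, which does so in osteoblasts, was at 0.476, 0.325 and 0.986 CPM in ImC and 17.6, 75.9 and 5.06 CPM in MatC (5.79 ± 1.05, adjusted p = 0.038, 4.27 without MatC replicate 2 and 6.39 without ImC replicate 3). Egr2, an immediate early zinc finger factor, had 1 read in ImC and 101 in MatC, a ratio of 151.7 (26.6 to 6050), and was the only one of 22 immediate early genes called. The calls of Sox5, Creb3l2 and Egr2 ended without all but ImC replicate 3 (0.0503 to 0.161), and that of Creb3l1 without all but MatC replicate 3 (0.0576 to 0.153). That of Sox8 ended without ImC replicate 1, MatC replicate 1 or MatC replicate 2 (0.0764 to 0.112), and those of Foxo1, Prrx1 and Zeb2 without these or ImC replicate 2 (0.057 to 0.151).

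Genes of cell division lay mostly on the lower side, and most were not called. Of 42 cell cycle genes Cenpf and Tpx2 fell and 0 rose (0.364% and 1.19% over all genes). Of the 42, 39 had a negative log2 fold change, with a median of -0.77. In 15 MatC lay wholly below ImC, against 13.3% of all genes. Cenpf, a kinetochore protein, was at 75.4, 91.4 and 44.3 CPM in ImC and 17.4, 20.8 and 15.4 CPM in MatC (-1.98 ± 0.38, adjusted p = 0.0454). Tpx2, which builds the mitotic spindle, was at 45.7, 51.9 and 55.7 CPM and at 12.7, 18.8 and 17.5 CPM (-1.65 ± 0.32, adjusted p = 0.0484). Casc5, a kinetochore scaffold, and Sapcd2, a protein of spindle orientation, were outside that list and fell by 2.79 ± 0.39 and 3.47 ± 0.47 on a log2 scale (adjusted p = 0.0244 and 0.0223). Casc5 was at 29.4, 29.3 and 28.1 CPM in ImC and 2.95, 4.04 and 5.75 CPM in MatC, and Sapcd2 at 16.9, 31.9 and 30.04 CPM and at 1.57, 2.48 and 3.22 CPM. Of 5 inhibitors of cyclin-dependent kinases only Cdkn1a, which halts the cell cycle, was called. It was at 1.77, 4.88 and 3.65 CPM in ImC and 62.1, 82.3 and 58.4 CPM in MatC, a rise of 4.29 ± 0.47 (adjusted p = 0.0122). The calls of Cenpf, Tpx2, Casc5 and Sapcd2 all ended without ImC replicate 1, MatC replicate 1 or MatC replicate 2 (0.0601 to 0.169), and those of Cenpf, Tpx2 and Casc5 also without ImC replicate 2 (0.11, 0.114 and 0.0525). Tpx2's ended without ImC replicate 3 (0.0696), and Tpx2's and Cenpf's without MatC replicate 3 (0.0791 and 0.0928). Cdkn1a's ended without ImC replicate 1 or MatC replicate 2 (0.0574 and 0.0602).

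The largest fall was that of C4b, a complement component (chromosome 17, 34728380 to 34743882). It was at 15.1, 15.97 and 31.7 CPM in ImC, and MatC held 1 read in all, a ratio of 773 in favour of ImC (95% exact counting interval 138.5 to 30560; adjusted p = 0.00552). Its near-identical copy C4a was at 1.02, 0.853 and 4.23 CPM in ImC and 0.564, 1.44 and 4.37 CPM in MatC and was not called (adjusted p = 0.996). Reads the counting could have split between them make both levels uncertain. Serpina3n, a secreted protease inhibitor of the acute phase and one of a cluster of similar genes (chromosome 12, 104406729 to 104414329), was at 53.9, 37.5 and 36.2 CPM in ImC and 1.76, 1.67 and 2.53 CPM in MatC. It fell by 4.46 ± 0.41 on a log2 scale (adjusted p = 0.00552). These calls ended only without MatC replicate 2 (0.0602 for C4b and 0.058 for Serpina3n), where the fitted log2 fold change of C4b moved from -9.26 to -11.33; it was -8.63 without MatC replicate 1. They were the falls that kept their call in the most fits, 5 of 6.

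Other falls were in genes of diverse function. Trabd2b, a protease that inactivates Wnt ligands, was at 60.9, 71.4 and 100.1 CPM in ImC and 2.07, 2.31 and 0 CPM in MatC (-5.56 ± 0.79, adjusted p = 0.0244). Clmn, a membrane-anchored actin-binding protein, was at 65.1, 89.8 and 64.6 CPM and at 7.40, 8.36 and 11.95 CPM (-3.00 ± 0.36, adjusted p = 0.0152). Limch1, a regulator of myosin, was at 65.9, 36.6 and 72.8 CPM and at 5.33, 8.30 and 2.07 CPM (-3.44 ± 0.54, adjusted p = 0.0288). Lrig3, a leucine-rich membrane protein, was at 59.1, 84.6 and 112 CPM and at 16.7, 9.28 and 11.95 CPM (-2.75 ± 0.40, adjusted p = 0.0258). For each of these the lowest ImC library stood well above the highest MatC library. Car9, a carbonic anhydrase induced by low oxygen, was uneven in ImC, at 10.7, 50.4 and 3.36 CPM, and at most 0.231 CPM in MatC (-7.32 ± 1.27, adjusted p = 0.0349). Its log2 fold change was -5.76 without ImC replicate 2 and -8.58 without MatC replicate 2. It was the only one of 34 glycolysis and hypoxia genes called (median -0.30). All of these calls ended without ImC replicate 1, MatC replicate 1 or MatC replicate 2 (0.057 to 0.14), those of Lrig3 and Car9 also without ImC replicate 2 (0.052 and 0.0653) and MatC replicate 3 (0.0508 and 0.0791). Rap1gap, Lin7a, Syne4, Ndrg2 and the non-coding Gm26603 fell too, by 2.22 (Ndrg2) to 4.78 (Lin7a) on the log2 scale, and none of their calls held without ImC replicate 1, MatC replicate 1 or MatC replicate 2 (0.0711 to 0.174). Lin7a, a scaffold of cell junctions, was at -3.47 on the log2 scale without ImC replicate 2. Further calls ended without ImC replicate 2 (Lin7a, Syne4, Ndrg2 and Gm26603, 0.053 to 0.0899), MatC replicate 3 (Rap1gap, Lin7a, Syne4 and Ndrg2, 0.0503 to 0.0762) and ImC replicate 3 (Ndrg2, 0.0501).

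Of 33 imprinted genes, which are read from 1 parental copy, 4 fell and 0 rose. Over all genes tested, 0.364% fell and 1.19% rose. The median of the list was -0.97. In 14 members MatC lay wholly below ImC and in 1 wholly above, against 13.3% and 10.7% of all genes. Dlk1, Rian and Mirg lie beside each other on chromosome 12, between 109452823 and 109749460. Dlk1, a membrane protein related to Notch ligands, was at 268, 299.9 and 188 CPM in ImC and 64.2, 63.0 and 61.1 CPM in MatC (-2.0 ± 0.34, adjusted p = 0.0348). Rian, a long non-coding RNA, was at 1039, 1365 and 705 CPM and at 259, 252 and 209 CPM (-2.11 ± 0.40, adjusted p = 0.0454). Mirg, the non-coding host of a microRNA cluster, was at 221, 217 and 333 CPM and at 26.8, 62.8 and 49.2 CPM (-2.47 ± 0.43, adjusted p = 0.0349). Meg3, the non-coding RNA next to them, was at 3565, 3585 and 7646 CPM in ImC and 331, 937 and 1028 CPM in MatC, and was not called (-2.69 ± 0.61, adjusted p = 0.0748). The fourth fall was Ppp1r9a, an actin-binding scaffold on chromosome 6, at 289, 211 and 258 CPM in ImC and 28.4, 33.5 and 57.0 CPM in MatC (-2.68 ± 0.40, adjusted p = 0.0268). The list summed to 23310, 28040 and 33450 CPM in ImC and 13850, 9845 and 13640 CPM in MatC. The calls all ended without ImC replicate 1, MatC replicate 1 or MatC replicate 2 (0.0795 to 0.168), and those on chromosome 12 also without ImC replicate 2 or MatC replicate 3 (0.0662 to 0.11); Mirg's ended without ImC replicate 3 as well (0.0501). With all 9 libraries in the fit the calls of Dlk1, Rian and Mirg also ended (0.0656, 0.0722 and 0.0655), and 6 genes of the list fell and 1 rose.

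Genes that act at the cell surface and in the cytoskeleton were among the rises, which made up 1.19% of all genes tested. Of 46 adhesion genes 3 rose and 0 fell: Itgb3, an integrin chain that binds osteopontin and bone sialoprotein (5.74 ± 0.88, adjusted p = 0.0275), Itga7, a laminin receptor chain (6.44 ± 1.13, adjusted p = 0.0349), and the heparan sulfate proteoglycan Gpc1 (2.07 ± 0.36, adjusted p = 0.0349). Itgb3, also on the osteoclast list, was at 0.680, 0.528 and 0.058 CPM in ImC and 7.96, 34.7 and 26.2 CPM in MatC. Of 41 angiogenic and guidance genes 4 rose and 0 fell, namely the growth factor Pdgfa, the semaphorin Sema7a, the netrin receptor Unc5b and the semaphorin and VEGF receptor Nrp1. Pdgfa was at 7.003, 4.67 and 10.9 CPM in ImC and 53.3, 78.1 and 74.7 CPM in MatC (3.19 ± 0.42, adjusted p = 0.0223). Unc5b and Nrp1 rose by 3.93 ± 0.60 and 2.38 ± 0.44 (adjusted p = 0.0275 and 0.0414). Vegfa, the main vessel growth factor of hypertrophic cartilage, was not called (-0.30, adjusted p = 0.82).

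Vim, the intermediate filament protein of mesenchymal cells, was among the most abundant genes that rose, at 113, 88.1 and 70.7 CPM in ImC and 325, 317 and 351 CPM in MatC (1.87 ± 0.35, adjusted p = 0.0414). Tmsb4x, which binds free actin, was at 22.03, 61.9 and 47.7 CPM in ImC and 603, 524 and 170 CPM in MatC (3.30 ± 0.61, adjusted p = 0.0414). The MatC libraries were close together for Vim and spread for Tmsb4x. Car3, a carbonic anhydrase, was at 0.272, 0.163 and 1.16 CPM in ImC and 21.8, 107 and 33.3 CPM in MatC (6.68 ± 0.97, adjusted p = 0.0258, 5.71 without MatC replicate 2 and 7.99 without ImC replicate 3). The embryonic myosin Myh3, of the skeletal muscle list, had 2 reads in ImC and 874 in MatC, a ratio of 656.4 (181.2 to 5428), of which 782 were in MatC replicate 2. Of 202 solute carriers 4 rose and 0 fell, near the 1.19% and 0.364% of all genes. They were Slc13a5, the sodium-proton exchanger Slc9a2 and the amino acid carriers Slc7a7 and Slc1a2. Slc9a2 had 1 read in ImC and 795 in MatC (ratio 1194, 213.7 to 47220).

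The calls in these surface, cytoskeletal and transport genes were fragile to single libraries. Without ImC replicate 1 or MatC replicate 2, Itgb3, Itga7, Gpc1, Pdgfa, Sema7a, Unc5b, Nrp1, Vim, Tmsb4x, Car3, Myh3, Slc9a2, Slc7a7 and Slc1a2 all missed the threshold (0.0602 to 0.177). Those of Pdgfa, Car3 and Slc9a2 held without each of the other 4 libraries. Without ImC replicate 2 the calls of Itgb3, Gpc1, Sema7a, Unc5b, Nrp1, Vim, Tmsb4x, Myh3, Slc7a7 and Slc1a2 ended (0.0603 to 0.124), and without MatC replicate 1 those of Itga7, Gpc1, Sema7a, Unc5b, Nrp1, Vim, Tmsb4x, Slc7a7 and Slc1a2 (0.057 to 0.146). Without ImC replicate 3, Gpc1, Nrp1, Vim, Tmsb4x, Myh3, Slc7a7 and Slc1a2 missed it (0.0501 to 0.0713), and without MatC replicate 3, Itgb3, Itga7, Gpc1, Nrp1, Vim, Slc7a7 and Slc1a2 (0.0503 to 0.0662). The log2 fold change of Myh3 was 8.76, with 8.06 without ImC replicate 2 and 7.10 without MatC replicate 2. That of Itga7 was 7.96 without ImC replicate 3, 5.76 without ImC replicate 2 and 5.53 without MatC replicate 3. That of Slc9a2, 9.45 in all, was 10.93 without ImC replicate 2 and 8.83 without MatC replicate 1.

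Several lists tied to metabolism and general cell function had no called gene. Only 1.56% of all genes tested were called, so the lack of a call in lists this short says little about them. None of 41 nuclear genes of the respiratory chain was called, although 36 were positive (median 0.37). In 8 of them MatC lay wholly above ImC and in 0 wholly below, against 10.7% and 13.3% of all genes. None of 80 ribosomal protein genes was called (median 0.05). None of 32 lipid and cholesterol genes or 30 lysosome genes was called (medians 0.43 and 0.40). All 15 mitochondrially encoded genes had positive log2 fold changes (median 1.68, and 0.64 without MatC replicate 3) with 0 called and 0 without overlap. None of 14 Hox genes was called (median -1.15). With libraries scaled by library size only, the median of all genes shifted to -0.55, and the medians of the respiratory chain, lipid and lysosome lists turned to -0.06, -0.23 and -0.20 and that of the Wnt list to -0.33. The medians of the hypertrophic, osteoblast, mineralization and imprinted lists were then 3.70, 4.16, 1.11 and -1.53.

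**Figure D5:**
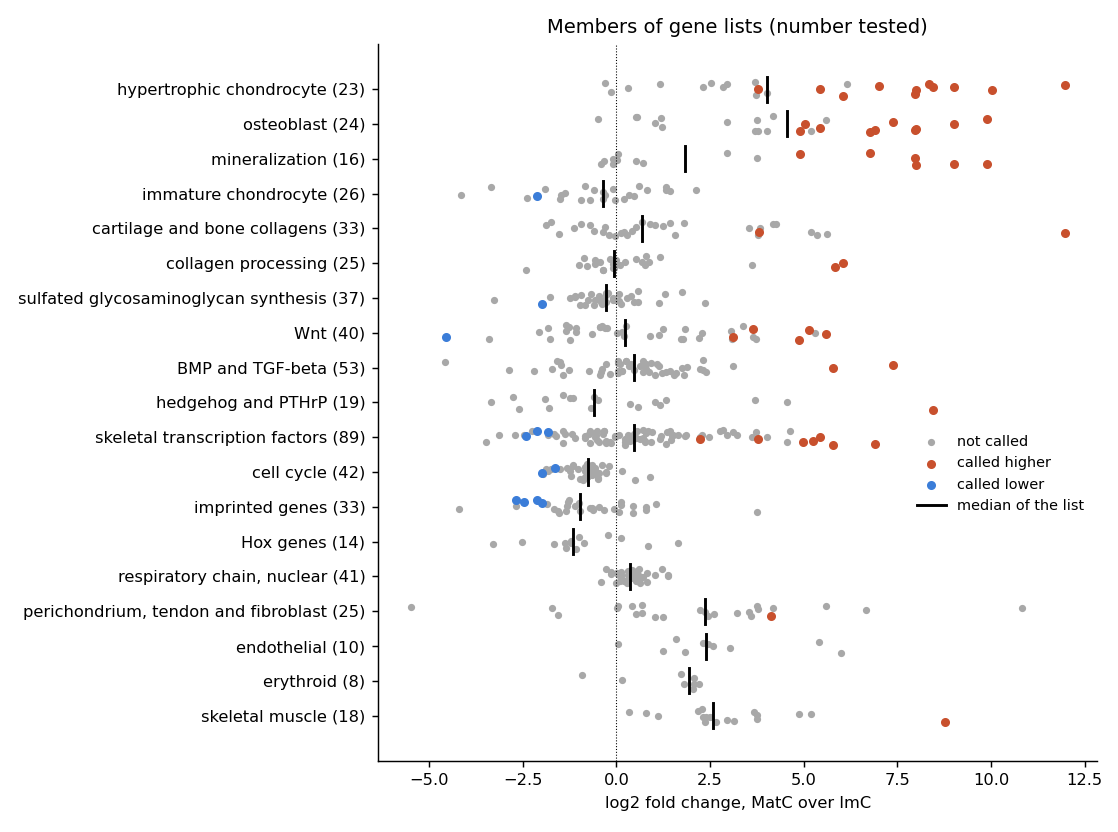
Log2 fold change of MatC over ImC for each tested member of 19 gene lists; red and blue points are called genes, grey points were not called, and black bars are list medians. The hypertrophic (4.01) and osteoblast (4.54) medians stand furthest to the right, and the cell cycle, imprinted and Hox medians lie to the left of 0.

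The rises did not all follow the same library. Of the 157 genes, 63 were highest in MatC replicate 2, 53 in replicate 3 and 41 in replicate 1, or 40.1%, 33.8% and 26.1%, against 31.3%, 33.7% and 35% of all genes tested. In 9, 8 and 4 of them that library was more than 3 times above both of the other MatC libraries. These were 5.73%, 5.1% and 2.55% of the rises, against 2.8%, 2.41% and 2.01% of all genes tested. Ibsp and Dmp1 stood out this way in replicate 2 and Col10a1 in replicate 3. Of the 48 genes that fell, 22 were highest in ImC replicate 3, 16 in replicate 2 and 10 in replicate 1, or 45.8%, 33.3% and 20.8%, near the 42.6%, 35.4% and 21.9% of all genes tested.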

How the data were processed

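RNA was isolated from very small samples, treated with DNase, amplified for 1 round and made into Illumina TruSeq libraries, per the labels' protocols; the kit does not mark strand. The authors deposited a table of raw counts by gene symbol. It lists 43472 genes, and 0 of its entries lack a gene name. The submitters' processing notes name the genome mm10 and the tools HTSeq, edgeR, Bowtie2, TopHat2 and Trimmomatic 0.30; their roles are not given in the sources used here. A second deposited table of normalized values was not used.

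Groups and replicate numbers came from the library titles. Genes passing filterByExpr (minimum count 10) were scaled by TMM and tested in edgeR 4.0.16 (R 4.3.3), with genes called at an adjusted p under 0.05. The standard error was taken as the size of the log2 fold change divided by the root of its F statistic. Levels are CPM with TMM factors. A gene with 0 reads in a group is compared with a floor of 3 reads over that group, and 1 to 3 reads give a ratio with a 95% exact (Clopper-Pearson) interval; both cover counting error only, since amplified reads are not independent molecules. Per library, 3 reads equalled 0.122 to 0.69 CPM. Alternatives used DESeq2 1.42.0 and limma 3.58.1. The procedure was tested on simulated data.

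Positions were looked up in GENCODE M21, whose GRCm38 assembly is the one called mm10; 12377 tested symbols (93.9%) had an entry. The 45 gene lists, the comparison and its members were chosen with earlier results of these data known, so a list's count is not independent evidence; each is read against the share of all genes called. Named genes are 16 markers, the 15 largest changes per direction with at least 20 CPM in the higher group, up to 5 called members per list, the 10 most abundant called genes per direction, and genes called without each library in turn. Genes named outside this rule, after their values were seen, are Nt5dc1, Panx3, C4a, Pthlh, Ptch1, Wnt10b, Igf2, Prrx1, Zeb2, Creb3l1, Meg3, Vegfa, Slc9a2, Slc7a7, Slc1a2 and those of the closing observations.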

Additional observations from a re-analysis of the deposited data

How the results depend on the processing

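The counts of 157 rises and 48 falls moved with the test and the libraries. Leaving out 1 library gave 8 to 153 rises and 0 to 53 falls. Leaving out MatC replicate 2 gave 0 falls by edgeR, with 1775 genes in either direction at an unadjusted p under 0.05. With library size only, 9 rose and 3 fell. The DESeq2 Wald test gave 645 and 356, limma-voom 86 and 25, limma-voom with sample quality weights 689 and 340, and edgeR's test above a log2 fold change of 1 gave 53 and 8. Without a filter on low counts there were 889 and 370, and with all 9 libraries in the fit 772 and 327. Leaving out replicate 3 of both groups, chosen after seeing the data, gave 529 and 167. The share of rises among calls was 76.6%, and 64.4% with DESeq2. Of the 205 calls, 204 were kept by DESeq2, 108 by limma-voom and 201 with all 9 libraries, where Dlk1, Rian, Mirg and RP23-204I16.3 were lost. The replicate numbers are not stated to mark a shared animal or day, so the main fit did not pair the libraries. Deviations of same-numbered libraries correlated at 0.264 and 0.278 for replicates 1 and 3 and at -0.0434 for replicate 2. With so few libraries a group, these correlations cannot settle whether the numbers pair them. A fit with the replicate block gave 264 rises and 94 falls, and 1052 and 471 with the block and without replicate 3 of both groups. In those deviations from group means, each replicate 3 library correlated best with the other across groups, and MatC replicate 1 with ImC replicate 2 (0.405). By the levels themselves, ImC replicate 3 was closest to ImC replicate 1 (rank correlation 0.869). MatC replicates 1 and 3 were then closest to MatC replicate 2 (0.915 and 0.866). The causes of these differences were not tested. DESeq2 size factors, leaving out mitochondrially encoded genes, a minimum count of 30 and thinning each library to 1904092 reads left both counts within 1.5 times. The share of counts in mitochondrially encoded genes was 17.6 points higher in MatC, and 7.3 to 31.6 points higher with 1 library left out. Depth limits what MatC replicate 3 can show: levels under 0.69 CPM there rest on fewer than 3 reads.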

Other observations

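Several genes outside the lists separated the groups. Beside the 5 genes called without any 1 library, 6 rises kept their call in 5 of the 6 fits, among them Gcnt2, a glycosyltransferase, Parm1, a membrane glycoprotein, and Ccdc80, a secreted matrix protein. Their log2 fold changes were 5.12, 5.08 and 5.84 (adjusted p = 0.0126, 0.0126 and 0.0152 by edgeR), and the calls ended only without ImC replicate 1 (0.0736, 0.0674 and 0.0738); Ccdc80 was at 4.96 without MatC replicate 3. In 7 risen genes ImC had no read in any library. They included Prdm1, a transcriptional repressor, with 260 reads in MatC, which was at least 130.2-fold higher against a floor of 3 reads over the ImC group, and Gfi1, another repressor, with 136 reads and at least 68.1-fold higher. The call of Prdm1 held only without MatC replicate 1, and that of Gfi1 only without ImC replicate 3.

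Among called genes, 22 pairs lay within 500 kb of each other, and most of these pairs went in the same direction. Such pairs were not counted over all genes tested, so the number has no background here. Rap1gap and Alpl on chromosome 4 were 11872 bases apart and went in opposite directions: Rap1gap was at 22.9, 20.6 and 50.1 CPM in ImC and 3.76, 4.21 and 5.98 CPM in MatC, while Alpl rose. Sfrp5 fell and Loxl4 rose 391730 bases apart on chromosome 19.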
